A study of Mus musculus with 6 samples.

Results

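The guanylate-binding proteins (GBPs) and the immunity-related GTPases (IRGs) are families of interferon-induced GTP-hydrolyzing enzymes. The expression of 10 of their genes was measured in TKPTS cells, a mouse renal proximal tubule cell line. These were the GBP genes Gbp2, Gbp3, Gbp5, Gbp6 and Gbp7 and the IRG genes Irgm1, Irgm2, Igtp, Iigp1 and Tgtp1. They were chosen by gene symbol, with earlier results of these data known, and all 10 were found among the 29595 genes of the table. The Hnf3a group (3 libraries) received the plasmid pcDNA3.1-Hnf3a-Flag, which drives HNF3α, the transcription factor encoded by Foxa1. The pcDNA group (3 libraries) received pcDNA3.1-Flag, the same plasmid without that gene. Cells of both groups were harvested for RNA sequencing the day after transfection, and no interferon treatment is named for either. The question was how the transcripts of tubular cells change when HNF3α is overexpressed. All values are averages over transfected and untransfected cells of a well.

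GBPs are large GTPases of the dynamin superfamily that assemble on membranes around invading microbes, and several of them are anchored there by a lipid (prenyl) tail. IRGs are smaller and act on the same vacuoles. Irgm1, Irgm2 and Igtp (also called Irgm3) form a regulatory class that protects the cell's own membranes, whereas Iigp1 (Irga6) and Tgtp1 (Irgb6) belong to the effector class that loads onto the vacuole of the microbe. Interferon-γ induces both families through DNA elements of their promoters, the GAS element and the interferon-stimulated response element (ISRE), the latter bound by the IRF factors.

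The genes lie in a few clusters. In the coordinates of the table (GRCm38), Gbp5 (ENSMUSG00000105504), Gbp7 (ENSMUSG00000040253), Gbp3 (ENSMUSG00000028268) and Gbp2 (ENSMUSG00000028270) follow each other on chromosome 3, plus strand, between positions 142493978 and 142638008. Gbp6 (ENSMUSG00000104713) is on chromosome 5, minus strand, between 105270702 and 105293696. Irgm1 (ENSMUSG00000046879) and Tgtp1 (ENSMUSG00000078922) are on chromosome 11, minus strand, the first between 48861968 and 48871683 and the second between 48985327 and 48994172. Igtp (ENSMUSG00000078853) and Irgm2 (ENSMUSG00000069874) overlap on its plus strand between 58199556 and 58222782. Iigp1 is ENSMUSG00000054072. The longest GENCODE transcript had 8 to 12 exons for the 5 GBP genes and 2 or 3 exons for the 5 IRG genes.

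The RefSeq promoter set used here held no sequence for Gbp6 and Iigp1. Promoter sequences are shown because the other 8 genes shared an element. The genes were chosen by symbol, but from families known to be induced through this element, so its presence follows largely from that choice. Some are related copies with similar promoters, such as Igtp and Irgm2, and do not count as independent finds. The window searched was the 250 bases before the RNA start (GRCm38.p6). An ISRE, searched on both strands as 2 copies of GAAA with any 2 bases between them, was found in 8 of 8 genes, against 3.46% of all 27025 genes with a promoter and 4 of 8 other GBP and IRG genes. Counted by promoter, it was in 8 of 9 (Gbp3 has 2), against 2.98% of all 32851 promoters of that length. A GAS element, searched as TTCNNNGAA, was in 5 of the 8 (Gbp5, Gbp7, Igtp, Irgm2 and Tgtp1), against 8.13% of all genes with a promoter and 3 of 8 other GBP and IRG genes. The last 180 bases before the start are printed 5′ to 3′ for 3 GBP and 3 IRG genes, with ISRE and GAS matches in capitals (an ISRE on the other strand reads as 2 copies of TTTC).
Gbp5 (chr3:142496754-142496933, plus strand): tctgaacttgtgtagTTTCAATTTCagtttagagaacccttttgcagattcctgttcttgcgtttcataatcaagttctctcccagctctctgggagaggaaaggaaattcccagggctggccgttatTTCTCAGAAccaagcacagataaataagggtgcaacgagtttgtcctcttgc
Gbp2 (chr3:142620483-142620662, plus strand): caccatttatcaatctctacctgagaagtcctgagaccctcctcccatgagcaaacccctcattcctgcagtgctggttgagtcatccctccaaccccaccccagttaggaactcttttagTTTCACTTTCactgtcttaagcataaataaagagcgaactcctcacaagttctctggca
Gbp3 (chr3:142559864-142560043, plus strand): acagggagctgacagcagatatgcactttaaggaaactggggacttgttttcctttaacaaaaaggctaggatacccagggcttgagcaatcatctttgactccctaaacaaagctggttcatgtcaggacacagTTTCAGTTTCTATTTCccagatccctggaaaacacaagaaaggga
Igtp (chr11:58199376-58199555, plus strand): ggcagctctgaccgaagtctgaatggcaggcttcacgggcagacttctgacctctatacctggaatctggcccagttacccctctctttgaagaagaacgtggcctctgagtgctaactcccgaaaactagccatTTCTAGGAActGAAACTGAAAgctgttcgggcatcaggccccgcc
Irgm2 (chr11:58214797-58214976, plus strand): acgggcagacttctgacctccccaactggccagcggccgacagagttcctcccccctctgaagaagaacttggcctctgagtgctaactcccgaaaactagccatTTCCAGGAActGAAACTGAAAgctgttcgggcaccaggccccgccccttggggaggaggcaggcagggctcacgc
Tgtp1 (chr11:48992247-48992426, minus strand): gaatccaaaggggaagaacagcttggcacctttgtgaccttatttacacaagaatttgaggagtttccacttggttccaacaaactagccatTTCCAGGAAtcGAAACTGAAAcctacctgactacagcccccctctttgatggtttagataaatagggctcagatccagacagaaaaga

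In Igtp, Irgm2 and Tgtp1 the elements sat in the same arrangement, a GAS followed after 2 bases by an ISRE. It began 45, 75 and 88 bases before the respective RNA start. This arrangement, searched on both strands after it had been seen in these 3, was in 5 of all 32851 promoters (0.0152%). The other 2 promoters were those of Gm12185 and Tgtp2, which are IRG genes too. Gm12185 is on the minus strand and so begins at 48992226, close to the RefSeq start of Tgtp1 at 48992246. It shares 223 exonic bases with Tgtp1 on the same strand, and Tgtp2 is a near-identical copy of Tgtp1. Whether the windows of Gm12185 and Tgtp1 cover the same bases was not tested. The 5 promoters therefore do not count as independent occurrences. Gbp5 instead had its ISRE 165 to 156 bases and GAS matches 245 to 237 and 52 to 44 bases before the start. Gbp7 had both elements as well, its ISRE 53 to 44 bases before the start. Gbp2, Gbp3 and Irgm1 had an ISRE and no match to the GAS letters. The κB letters, GGGA and CC with any 4 bases between them, were found in 1 of the 8 (Gbp5; 19.7% of all genes with a promoter) and the forkhead letters TGTTTAC in 1 (Gbp3, 239 to 233 bases before its start and outside the printed bases; 3.54% of all genes with a promoter). Some of these RefSeq starts lie inside the gene of the table, so their windows are not upstream of the whole gene. That of Gbp5 is at 142496934, in a gene that begins at 142493978. That of Irgm2 is at 58214977, in a plus-strand gene that spans 58199618 to 58222782. That of Tgtp1 is at 48992246, in a minus-strand gene that spans 48985327 to 48994172. Gbp3 has another RefSeq start, whose window held none of these letters.

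Library totals ran from 60473818 to 71154667 estimated counts. Foxa1 had 305 ± 26.2 FPKM (fragments per kilobase of transcript, scaled to library size; SD, n = 3) in Hnf3a and 9.66 ± 0.259 in pcDNA. Some epithelial and kidney markers were high in every library (Epcam near 104 FPKM in both groups, Pax8 between 27.5 and 31.4), but the proximal tubule markers Lrp2 and Cubn were between 0.0138 and 0.0534 FPKM and Slc5a2 had 0 to 3 counts. Of 13 tested 9 were positive, and only Krt18 was called, higher in Hnf3a (log2 fold change 0.20, edgeR adjusted p = 0.00148). Their summed level was 572.6 to 576.9 FPKM in Hnf3a and 530.5 to 539.1 in pcDNA. Without Krt18 it was 326.0 to 328.3 and 319.0 to 326.3 FPKM. Hnf3a replicates 2 and 3 stood apart from the other 4 libraries. In both, 17 of 18 macrophage markers exceeded the detection floor of 12 counts, against 5 in Hnf3a replicate 1 and 6 in each pcDNA library. Fcgr3, Tyrobp and C1qa were at 0 counts in those 4 libraries. The summed macrophage marker level was 37.8, 45.5 and 46.2 FPKM in Hnf3a and 51.3 to 54.2 in pcDNA. Cd14, called lower (36.6 ± 2.34 FPKM in pcDNA and 22.7 ± 0.845 in Hnf3a), set that order, and without it the sums were 15.9, 21.9 and 23.5 FPKM in Hnf3a and 14.9 to 17.3 in pcDNA. Of 9 macrophage markers tested 8 had positive fold changes, and Mertk was called higher (3, 0 and 4 counts in pcDNA, 36, 37 and 24 in Hnf3a). The same 2 libraries had all 8 fibroblast markers above the floor (summed level 7.74 and 9.56 FPKM), against 1 to 4 of 8 elsewhere (0.119 to 0.228), and the 7 tested were all positive with 0 called by edgeR (5 higher at an unadjusted p under 0.05). DESeq2, and edgeR without Hnf3a replicate 1, called Col1a1, Col1a2 and Col3a1 higher. With a replicate block, edgeR called Col1a1 higher. Of 7 T and NK cell markers 3 were listed, and at most 1 exceeded the floor in any library. Summed endothelial markers were at 0.507 to 0.521 FPKM in Hnf3a and 0.758 to 1.01 in pcDNA. Cdh5, called lower, set this order. It turned without Cdh5, where the sums were 0.134 to 0.165 FPKM in Hnf3a and 0.0479 to 0.0862 in pcDNA. Of 5 tested 4 were positive, and Tek was called higher (0 counts in each pcDNA library, 11, 15 and 16 in Hnf3a). The part of these RNAs in the results was not tested, and the calls that were lost without Hnf3a replicates 2 and 3 are named with each group of genes below.

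All 10 GTPase genes were expressed in the pcDNA cells, over a 21.6-fold range of mean FPKM. The order was Gbp3, Gbp2, Irgm1, Igtp, Tgtp1, Gbp7, Irgm2, Iigp1, Gbp5 and Gbp6, and the 3 libraries of each gene did not overlap those of its neighbor in this order. Both families were thus spread over high and low levels. In Hnf3a the range was 25.6-fold and the order changed at 1 place, where Irgm1 (79.6 ± 2.29 FPKM) stood above Gbp2 (70.4 ± 2.45). Igtp (54.8 ± 2.42) and Tgtp1 (50.3 ± 2.30) overlapped there, and the other neighbors did not.

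**Figure D1:**
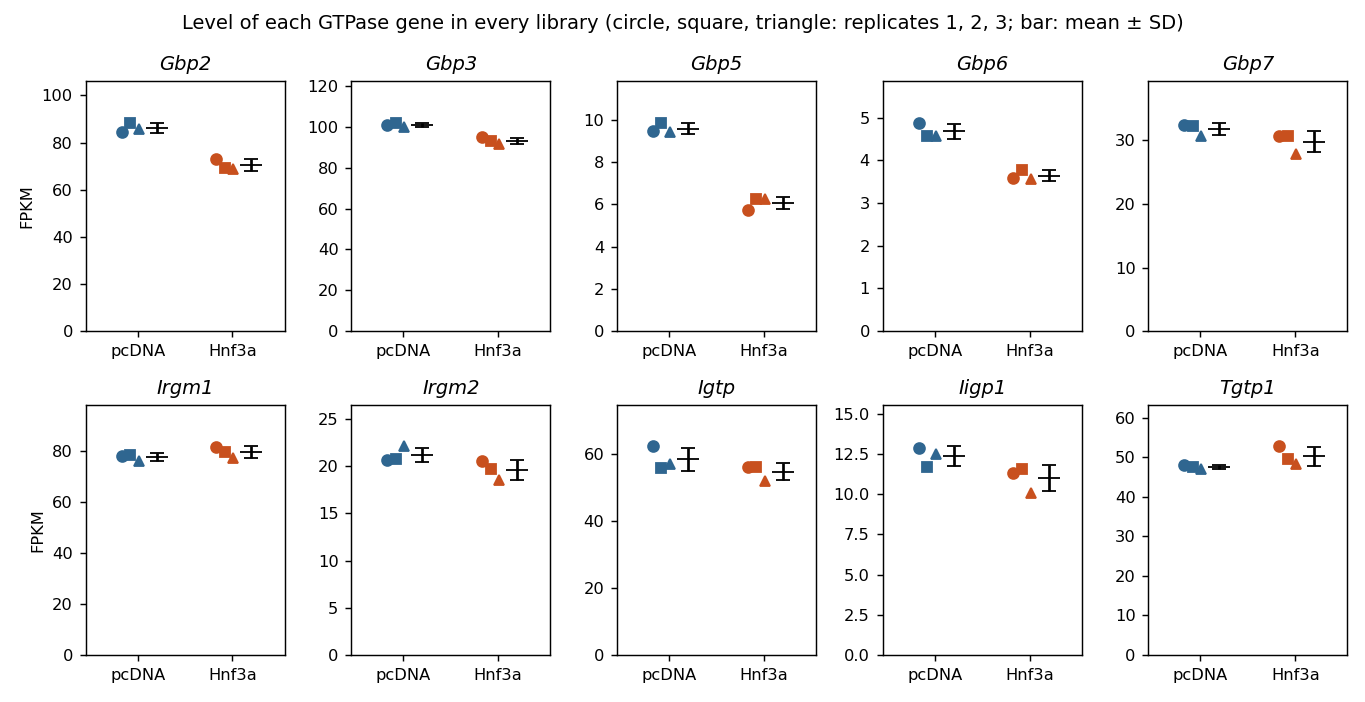
Level of each of the 10 genes in FPKM (y axes from 0, a scale for each gene) in the 3 pcDNA and 3 Hnf3a libraries; symbols mark replicates 1 to 3 and bars the mean ± SD. Relative to its level, Gbp5 shows the widest gap, 9.44 to 9.86 in pcDNA against 5.75 to 6.25 in Hnf3a, while Irgm1 and Igtp overlap.

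The GBP genes Gbp2, Gbp3, Gbp5 and Gbp6 were lower in Hnf3a than in pcDNA, and none of the 5 IRG genes among the 10 passed the test. At an adjusted p under 0.05 (edgeR, over all 17824 genes tested), 4 of the 10 genes were called, all lower, against 3.17% of all genes tested (1.04% higher and 2.13% lower). The 0 higher calls stood beside 0 at an unadjusted p under 0.05 and 0 with DESeq2 or limma. In bulk RNA, fewer cells that express a gene and less RNA per cell cannot be told apart. Fold changes below are log2 values of Hnf3a over pcDNA from the normalized counts, with their SE.

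Gbp5, a GBP known for its link to NLRP3 inflammasome activation, had the largest difference of the 10. Its level was 9.46, 9.86 and 9.44 FPKM in pcDNA replicates 1 to 3 and 5.75, 6.24 and 6.25 in Hnf3a replicates 1 to 3. Every Hnf3a library was below every pcDNA library, with a wide gap between groups. Gbp5 fell by 36.9% (log2 fold change -0.67, SE 0.045, 95% interval -0.76 to -0.57, edgeR adjusted p = 1.29e-06). By p-value it ranked 19 among all genes tested.

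Gbp6, from the chromosome 5 cluster, was the lowest expressed of the 10. It measured 4.88, 4.58 and 4.57 FPKM in pcDNA and 3.59, 3.78 and 3.56 in Hnf3a, again without overlap. It fell by 22.6% (log2 fold change -0.37, SE 0.056, edgeR adjusted p = 0.00198). Of the 150-base stretches of its longest transcript, 43.4% also occur in Gm43302 or Gbp10, so that reads could be split among these genes. With the counts of the 3 genes summed, the fold change was -0.38 (adjusted p = 0.000582).

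Gbp2 is a prenylated GBP that is recruited to vacuoles of Toxoplasma gondii. It was the most abundant of the 3 genes that were called in each alternative setting, with 84.3, 88.4 and 85.7 FPKM in pcDNA and 73.2, 69.4 and 68.7 in Hnf3a. The groups did not overlap. Gbp2 fell by 18.7% (log2 fold change -0.30, SE 0.035, 95% interval -0.38 to -0.22, edgeR adjusted p = 0.000225).

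Gbp3, the highest expressed of the 10 in both groups, showed the smallest of the called differences. It measured 101, 102 and 99.8 FPKM in pcDNA and 94.9, 92.9 and 91.8 in Hnf3a. These groups were apart, but by a narrow margin relative to the level. Gbp3 fell by 8.18% (log2 fold change -0.12, SE 0.029, edgeR adjusted p = 0.036). This call was lost in 11 of 18 alternative settings, with adjusted p-values from 0.00224 to 0.265, and leaving out any single library other than Hnf3a replicate 1 ended it (up to 0.205).

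Gbp7, which is linked to assembly of the NADPH oxidase, did not pass the test. Its values were 32.4, 32.3 and 30.7 FPKM in pcDNA and 30.7, 30.7 and 27.9 in Hnf3a. The groups met near 30.7 FPKM (log2 fold change -0.10, 95% interval -0.19 to -0.011, edgeR adjusted p = 0.294).

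Among the regulatory IRGs, Irgm1, which also takes part in autophagy, was nearly level between groups. It measured 78.3, 78.7 and 76.0 FPKM in pcDNA and 81.8, 79.8 and 77.3 in Hnf3a, with overlap. Its log2 fold change was 0.028 with a 95% interval from -0.038 to 0.095 (edgeR adjusted p = 0.788), an interval that leaves out a change of the size seen in Gbp2. Irgm2 measured 20.7, 20.8 and 22.1 FPKM in pcDNA and 20.6, 19.7 and 18.5 in Hnf3a, and replicate 1 of the 2 groups all but met. Its fold change of -0.12 (95% interval -0.22 to -0.021) did not pass the test (edgeR adjusted p = 0.248). Igtp ranged from 55.8 to 62.3 FPKM in pcDNA and from 52.0 to 56.3 in Hnf3a, and the groups overlapped (fold change -0.10, adjusted p = 0.363). Igtp and Irgm2 share 162 exonic bases on the same strand, which is 8.01% of the exonic bases of Igtp.

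The effector IRGs did not pass the test either, and pointed in opposite directions. Iigp1 measured 12.9, 11.7 and 12.5 FPKM in pcDNA and 11.3, 11.6 and 10.1 in Hnf3a. The groups did not overlap, although pcDNA replicate 2 and Hnf3a replicate 2 were close. The fold change was -0.18 (95% interval -0.29 to -0.062, edgeR adjusted p = 0.109), and the DESeq2 test was the only 1 of 18 alternatives that called it (adjusted p = 0.0471). Tgtp1 measured 48.1, 47.5 and 47.1 FPKM in pcDNA and 52.8, 49.7 and 48.3 in Hnf3a. It had the highest fold change of the 10, at 0.072 (95% interval -0.0097 to 0.15, edgeR adjusted p = 0.453), and on the scale of the test its groups overlapped. Of its 150-base stretches 74.1% also occur in Tgtp2 or Gm12185, and with Tgtp2 added the fold change was 0.064 (adjusted p = 0.438).

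By count, 8 of the 10 fold changes were negative, against 8874 of all 17824 genes tested. At an unadjusted p under 0.05, 8 of the 10 were lower, against 1245 of the 17824 (13.5% of all genes tested passed this in either direction). The 3 Hnf3a libraries did not overlap the 3 pcDNA libraries for 6 of the 10 on the scale of the test, each time with Hnf3a lower, against 9.81% of all genes tested (9.12% had Hnf3a higher). The median fold change was -0.12 over the 10 genes and 0.00085 over all genes tested. It was -0.30 over the 5 GBP genes and -0.10 over the 5 IRG genes, and the difference between the families was not tested.

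**Figure D2:**
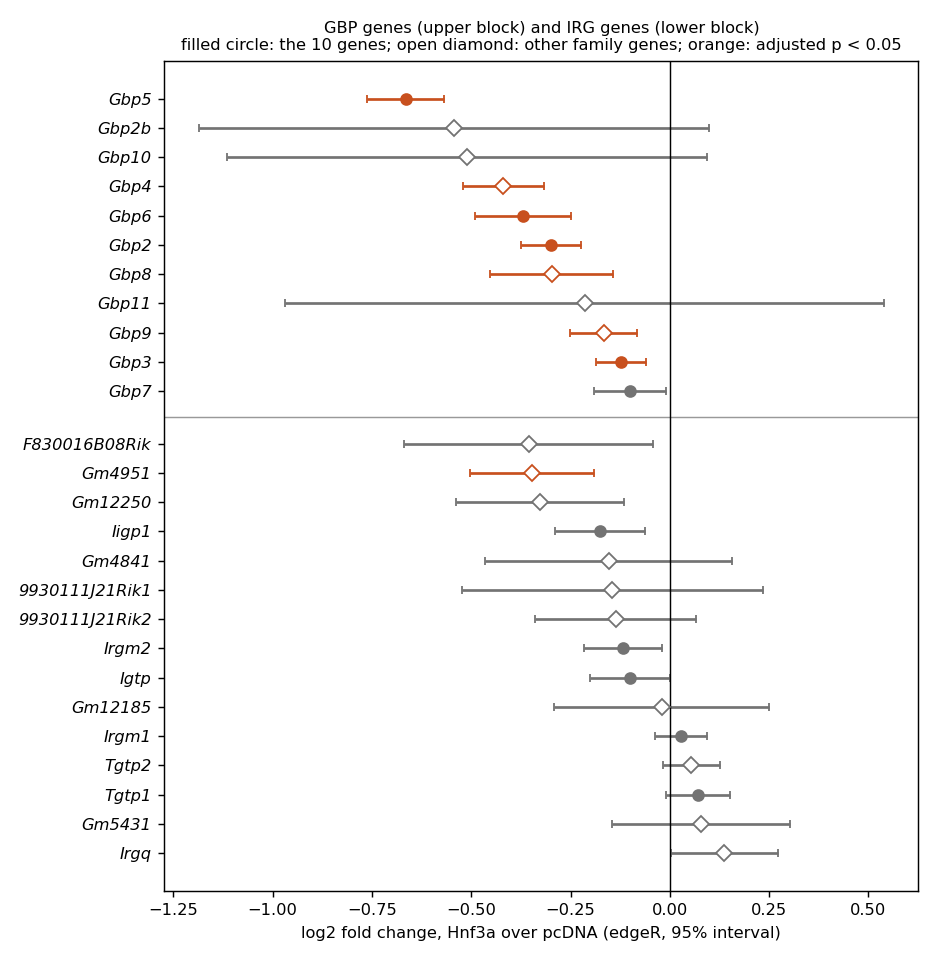
Log2 fold change of Hnf3a over pcDNA (x axis; points, edgeR estimate; bars, 95% interval) for 11 GBP genes above the line and 15 IRG genes below it; filled circles are the 10 genes described here, open diamonds other family genes, and orange marks an adjusted p under 0.05. All 11 GBP values lie left of 0, with Gbp5 lowest at -0.67, while the IRG values run from -0.35 to 0.14.

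Gbp2, Gbp5 and Gbp6 were called lower in each of 18 alternative settings, with fold changes of -0.33 to -0.23, -0.74 to -0.58 and -0.39 to -0.29. With Hnf3a replicate 1 as the only Hnf3a library, a setting chosen after the data were seen in which this library is assumed to vary like the others, the fold changes were -0.23 for Gbp2 (edgeR adjusted p = 0.017), -0.74 for Gbp5 (0.000133) and -0.38 for Gbp6 (0.0377). That of Gbp3 was -0.089 (0.265), so Gbp3 was not called there.

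Of the other GBP genes, Gbp4, Gbp8 and Gbp9 were lower too. With the 4 called among the 10 counted again, 7 of 11 GBP genes tested were called, all lower, against 2.13% of all genes tested. Of 15 IRG genes tested 1 was called, also lower, too few to set apart from that share. Gbp4, like Gbp6 from the chromosome 5 cluster, had 8.46, 7.89 and 7.69 FPKM in pcDNA and 6.13, 6.14 and 5.80 in Hnf3a. The groups were well apart, and the call was made in each of 18 alternatives (log2 fold change -0.42, SE 0.048, edgeR adjusted p = 0.000167). Gbp8 (4.24 ± 0.150 FPKM in pcDNA, 3.47 ± 0.0321 in Hnf3a, fold change -0.30, adjusted p = 0.040) was called in 7 of the 18 and lost when any single library was left out (adjusted p = 0.0643 to 0.146). Gbp9 (27.0 ± 0.251 and 24.2 ± 1.25 FPKM, fold change -0.17, adjusted p = 0.0331) was called in 9 of them and lost when any library but Hnf3a replicate 1 was left out (up to 0.176). The IRG gene that was called was Gm4951, at 8.16 ± 0.545 FPKM in pcDNA and 6.45 ± 0.465 in Hnf3a (fold change -0.35, edgeR adjusted p = 0.0180). It was called in 13 of 18 alternatives and lost without pcDNA replicate 2 or 3 (up to 0.129). Without Hnf3a replicates 2 and 3, Gbp8 (adjusted p = 0.262) and Gbp9 (0.134) were not called, and Gbp4 and Gm4951 were. Over the 16 family genes tested beside the 10, 4 were called lower, 0 higher and 12 not called, with a median of -0.19. Over all genes tested, 2.13% were called lower and 1.04% higher. For the count of 0 higher calls, 1 of the 16 (Irgq, named after its value was seen) was higher at an unadjusted p under 0.05, and DESeq2 and limma called 0 higher.

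Ratios within a library do not depend on how libraries were scaled. Gbp5 amounted to 9.38, 9.64 and 9.46% of the FPKM of Gbp3 in pcDNA and to 6.06, 6.71 and 6.80% in Hnf3a. Against Irgm1 it was 12.1, 12.5 and 12.4% in pcDNA and 7.03, 7.81 and 8.09% in Hnf3a. Gbp5 was thus lower in proportion to other genes of the same families in each Hnf3a library. Gbp2 was 83.6, 86.5 and 85.9% of Gbp3 in pcDNA and 77.2, 74.6 and 74.8% in Hnf3a. The summed FPKM of the 5 GBP genes over that of the 5 IRG genes was 1.04, 1.11 and 1.07 in pcDNA and 0.934, 0.936 and 0.961 in Hnf3a. Whether this ratio lies above or below 1 depends on which genes are summed. Tgtp2, for example, was not in the IRG sum and had 43.2 FPKM in pcDNA and 45.1 in Hnf3a. The GBP sum was 233 ± 3.80 FPKM in pcDNA and 203 ± 4.95 in Hnf3a, and the IRG sum was 217 ± 4.42 and 215 ± 8.41. With 3 libraries against 3, an exact two-sided permutation test cannot go below p = 0.1, and none is given for these ratios.

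**Figure D3:**
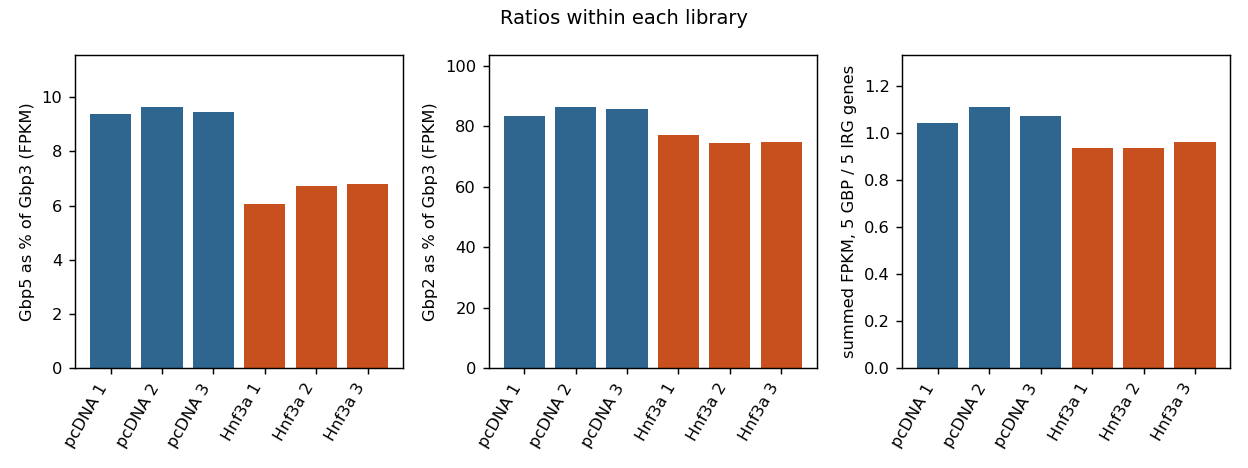
Ratios of FPKM within each of the 6 libraries (bars from 0; blue, pcDNA; orange, Hnf3a): Gbp5 and Gbp2 as a percentage of Gbp3, and the sum of the 5 GBP genes over that of the 5 IRG genes. Each Hnf3a bar is below each pcDNA bar in all 3 panels, by the widest margin relative to the pcDNA value for Gbp5 (6.06 to 6.80% against 9.38 to 9.64%).

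The signals that induce these GTPases start with interferons. Ifnb1, which encodes interferon-β, had 106, 91 and 86 counts in pcDNA and 8, 23 and 19 in Hnf3a, where replicate 1 was under the floor of 12 counts. Its level was low in both groups (1.76 ± 0.276 and 0.287 ± 0.133 FPKM) and the groups were far apart (log2 fold change -2.59, SE 0.36, edgeR adjusted p = 0.000888). The size of this difference varied from -3.57 without Hnf3a replicates 2 and 3 to -1.10 with limma on log2(FPKM + 1). Ifng, which encodes interferon-γ, was not analysed here.

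Of the receptor genes, Ifngr2 and Ifnar2 were called lower. Ifngr2, a subunit of the interferon-γ receptor, was at 14.0 ± 0.217 FPKM in pcDNA and 11.1 ± 0.697 in Hnf3a (fold change -0.34, edgeR adjusted p = 0.00115). Ifnar2, a subunit of the type I interferon receptor, was at 11.7 ± 0.239 and 9.94 ± 0.457 FPKM (fold change -0.25, adjusted p = 0.0143). Their partners were not called, with a fold change of -0.052 for Ifngr1 and -0.15 for Ifnar1 (adjusted p = 0.0777). Irf1, an IRF factor that interferon-γ induces, was at 34.8 ± 0.887 and 31.2 ± 0.617 FPKM (fold change -0.16, adjusted p = 0.0161). Among the 20 ligand, receptor and signalling genes tested, 4 were called lower, against 2.13% of all genes tested, and 0 higher. Their median fold change was -0.055. The 0 higher calls stood beside 0 at an unadjusted p under 0.05 and 0 with DESeq2 or limma. Ifnb1 and Ifngr2 were called in each of 18 alternatives, and Ifnar2 and Irf1 in 11. Leaving out Hnf3a replicate 2, pcDNA replicate 1 or pcDNA replicate 2 ended both of the latter calls, and leaving out pcDNA replicate 3 ended that of Ifnar2 (adjusted p up to 0.0899 for Ifnar2 and 0.11 for Irf1). Without Hnf3a replicates 2 and 3 Irf1 was not called (0.0686).

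The list of other interferon-γ targets, like the other lists, was chosen with earlier results of these data known. Of the 15 other interferon-γ targets tested, 9 were called lower, against 2.13% of all genes tested, and 0 higher (0 also at an unadjusted p under 0.05 and with DESeq2 or limma). With limma, without Hnf3a replicates 2 and 3, and without Hnf3a replicate 2, pcDNA replicate 1 or pcDNA replicate 3, 5 of the 15 were called lower. In 14 of them each Hnf3a library was below each pcDNA library, against 9.81% of all genes tested, and the median fold change was -0.21. The called genes have a few roles. The T cell attracting chemokines were Cxcl11, at 26.8 ± 1.54 FPKM in pcDNA and 18.9 ± 0.978 in Hnf3a (fold change -0.51), and the far more abundant Cxcl10, at 873 ± 19.5 and 811 ± 17.0 FPKM (-0.11). The genes of antigen processing were Psmb10 (-0.21), Psme1 (-0.13) and Psme2 (-0.22), which encode proteasome subunits and activators, the peptide transporter gene Tap1 (-0.19) and the MHC class I transactivator gene Nlrc5 (-0.40). The adhesion molecule gene Icam1 (-0.39) and the ADP-ribosyltransferase gene Parp14 (-0.25) completed them. Cxcl11, Psmb10, Psme2, Icam1 and Parp14 were called in each of 18 alternatives, and Cxcl10, Psme1, Tap1 and Nlrc5 in 9 to 11. Each of these 4 was lost without Hnf3a replicate 2, pcDNA replicate 1 or pcDNA replicate 3, all but Tap1 without pcDNA replicate 2, and Cxcl10 and Nlrc5 without Hnf3a replicate 3 (largest adjusted p 0.102 for Tap1 to 0.197 for Cxcl10). Without Hnf3a replicates 2 and 3, none of the 4 was called (0.115 to 0.236). Of 3 other large interferon-induced GTPases, Mx1, which restricts influenza virus, was called lower (21.1 ± 0.510 and 19.2 ± 0.216 FPKM, fold change -0.14, edgeR adjusted p = 0.0473). It was called in 4 of 18 alternatives and lost when any single library was left out (adjusted p = 0.0563 to 0.225), or when Hnf3a replicates 2 and 3 were (0.252).

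The next lists hold genes with which GBPs and IRGs act. Over all genes tested, edgeR called 3.17%, and 13.5% had an unadjusted p under 0.05. These lists are too small for their counts to be set apart from those shares. The ATG8 conjugation machinery directs IRGs and GBPs to vacuoles. Of 13 genes tested for ATG8 conjugation or the marking of vacuoles, 0 were called by edgeR (3 at an unadjusted p under 0.05), as by DESeq2 and limma (0 each). The smallest p-values there belonged to Traf6 (fold change -0.11) and Map1lc3a (0.21). Of 7 inflammasome and pyroptosis genes tested, Gsdmd was called lower, and the median fold change of the 7 was -0.23, with 4 negative and 3 positive. Gsdmd encodes the pore-forming gasdermin D, cleaved downstream of the inflammasomes in which GBPs take part. It measured 1.37 ± 0.129 FPKM in pcDNA and 0.867 ± 0.0916 in Hnf3a (fold change -0.66, edgeR adjusted p = 0.0407), a call made in 7 of 18 alternatives and lost when any single library was left out (adjusted p = 0.0502 to 0.165), or when Hnf3a replicates 2 and 3 were (0.151). Prenylation is the lipid attachment that anchors several GBPs. None of 6 genes for it or for the processing steps that follow it was called by edgeR (0 at an unadjusted p under 0.05), DESeq2 or limma. The fold changes were 0.074 for Zmpste24, of a later step, and 0.066 for Fnta.

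**Figure D4:**
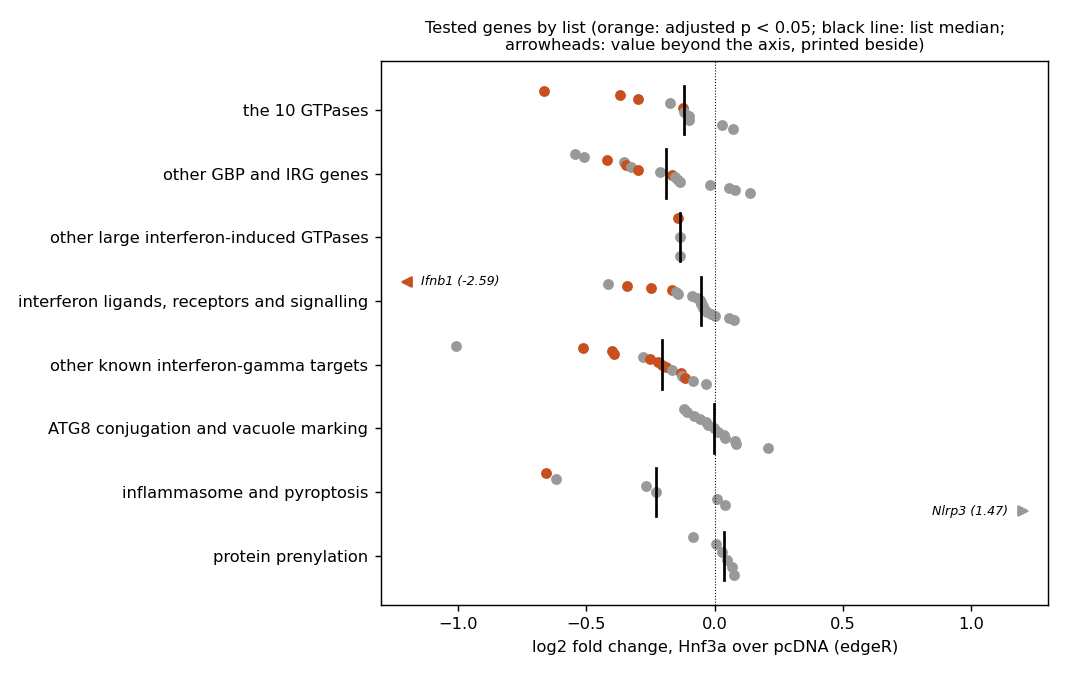
Log2 fold change of Hnf3a over pcDNA (x axis, edgeR) of each tested gene in 8 lists (rows); orange marks an adjusted p under 0.05, the black line the median of the list, and arrowheads values beyond the axis. The medians of the 10 GTPases (-0.12), of the other interferon-γ targets (-0.21) and of the 7 inflammasome and pyroptosis genes (-0.23) lie left of 0, while that of the ATG8 conjugation and vacuole marking genes (-0.0044) is close to it.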

How the data were processed

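RNA was sequenced from 6 libraries of TKPTS cells, 3 per group as labelled. Strand-marked libraries with molecular identifiers were made from polyadenylated RNA and sequenced from both ends. The submitters' processing notes name cutadapt 1.9, HISAT2 2.0.4, UMI-tools, StringTie 1.3.4d, DESeq2, edgeR and the build mm10, without roles. The annotation and the use of strand in counting are not given in the sources used here, so reads shared by overlapping or near-identical genes may be split among them.

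The authors deposited an estimated count and an FPKM value per gene and library. The estimated counts were whole numbers and were tested as they were. Because genes sat at 4 counts more often than at 3 or 5 in each library, 1 fragment was taken as worth up to 4 counts, and 12 counts, or about 3 fragments, served as the detection floor, which covers counting error only. Coordinates were those of GENCODE vM21 for 25765 of the 29514 genes found in both. Overlaps, exon numbers and shared 150-base stretches came from that annotation, promoters from RefSeq.

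Genes passing filterByExpr (17824 of 29595) were scaled by TMM and tested two-sided with edgeR 4.0.16 (glmQLFit, robust) in R 4.3.3, with p-values adjusted by Benjamini and Hochberg over all of them and a threshold of 0.05. The table was tested for copies of a library, and each pair differed by more than the sampling noise. Nothing states that libraries came from separate cultures, so p-values measure the spread between these samples, which may be technical. Alternatives were another scaling, DESeq2 1.42.0, limma 3.58.1 on log2(FPKM + a pseudocount of 0.01, 0.1 or 1), other filters, counts divided by 4, a replicate block and leaving out each library. Settings without Hnf3a replicates 2 and 3 and with near-identical copies summed were chosen after seeing the data.

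The genes and lists were chosen with earlier results of these data known. Named genes were the 10 GTPases, the called genes of each list, up to 2 genes of the smallest p in a list without calls, and set interferon, receptor and Irf1 genes, of which 1 result is not reported here. Marker and pathway genes absent from the table were not analysed here. The pipeline was tested on simulated data.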

Additional observations from a re-analysis of the deposited data

How the results depend on the processing

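Each of the 10 GTPase genes kept the sign of its fold change in 18 alternatives, and between 3 and 5 of them were called, always lower. Gbp2, Gbp5 and Gbp6 were called throughout. The count over all genes was 565 in the analysis reported, 236, 231 and 245 with limma at pseudocounts of 0.1, 1 and 0.01, 353 without Hnf3a replicates 2 and 3, and 263 to 643 when each library was left out in turn. The 19 called genes of the other lists became 8 with limma at each of the 3 pseudocounts, 10 without Hnf3a replicates 2 and 3, and 9 to 17 when a library was left out. Beyond the fewer samples in the latter, the cause was not tested.

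With replicate number as a block, 3 of the 10 genes were called (Gbp3 was lost, adjusted p = 0.0647), 16 of the other list genes and 463 of all genes. Deviations from the group means of libraries with the same number correlated at -0.041, -0.010 and 0.010, so the numbers gave no sign of pairing. Depth limited Ifnb1, for which 1 library was under the floor. Reads that fit more than one of the near-identical copies limit Gbp6 and Tgtp1.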
